A study of Mus musculus with 10 samples.

Results

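The 10 MAP kinase phosphatases (MKPs) with both a kinase-docking and a phosphatase domain, Dusp1, Dusp2, Dusp4, Dusp5, Dusp6, Dusp7, Dusp8, Dusp9, Dusp10 and Dusp16, were examined in cardiomyocytes after myocardial infarction (MI). They were taken as a gene family by symbol, not by their values, and all 10 were found among the 51789 genes counted. The libraries came from 5 non-transgenic littermate control mice (NLC-MI) and 5 mice with cardiomyocyte-specific GRK5 overexpression (TgGRK5-MI), each 1 mouse, and cells were isolated on day 4 after MI. Every mouse had an infarct, so these data compare genotypes after MI and hold no measure of the effect of MI itself. MI was induced by permanent occlusion of the left coronary artery. The study states that its TgGRK5 and NLC mice were young adults, within a range of a few weeks, and of both sexes, and the labels do not give the sex or age of each mouse. The promoter that drives the transgene and the strain are not given in the sources used here.

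MAP kinases (ERK, JNK and p38) are switched on when a pair of threonine and tyrosine residues in their activation loop is phosphorylated, and MKPs remove both phosphates. Most MKP genes are themselves switched on by MAP kinase signaling, so the family works as a negative feedback, and its RNA levels report in part on recent pathway activity. Dusp1, Dusp2, Dusp4 and Dusp5 encode inducible nuclear enzymes, Dusp6, Dusp7 and Dusp9 encode cytoplasmic enzymes that prefer ERK, and Dusp8, Dusp10 and Dusp16 encode enzymes that prefer JNK and p38. In the heart, ERK signaling is known for concentric hypertrophy, and JNK and p38 for the response to ischemic stress.

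The regulatory letters before the start sites are shown first, for the members whose searched stretch held a match. Whether these letters bear on the expression values given further on was not tested. In the RefSeq promoter table (GRCm38.p6), 8 of the 10 members were found, and Dusp4 and Dusp9 were not. The 250 bases before each start were searched on both strands for the cAMP response element TGACGTCA, for its core TGACG, which each full element holds once per strand, and for the CArG box bound by serum response factor (CC, 6 bases that are A or T, and GG). Capitals mark the matches.
Dusp1, chr17:26508602-26508669, minus strand: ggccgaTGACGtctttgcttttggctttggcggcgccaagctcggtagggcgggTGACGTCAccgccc
Dusp5, chr19:53529057-53529100, plus strand: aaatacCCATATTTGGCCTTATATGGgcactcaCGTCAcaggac
Dusp8, chr7:142095334-142095397, minus strand: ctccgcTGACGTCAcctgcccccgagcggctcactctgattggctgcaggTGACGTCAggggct
Dusp16, chr6:134792688-134792704, minus strand: ttcaagTGACGccatct

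The Dusp1 stretch held 1 full element, 143 to 136 bases before the start, and a further core. Dusp8 held 2 full elements, and Dusp5 held 2 CArG boxes side by side and a core on the other strand. Among all 32851 promoters in the table, 1.55% held the full element, 17.8% the core and 1.47% a CArG box in the same window. The windows of Dusp2, Dusp6, Dusp7 and Dusp10 held none of these letters. No annotated exon of the member overlapped a printed stretch. Those of Dusp1 and Dusp8 lay inside the annotated gene, in an intron of a longer transcript.

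Libraries held from 7968779 to 23381527 counts, and NLC-MI replicate 3, TgGRK5-MI replicate 4 and TgGRK5-MI replicate 3 were the shallowest. Levels are given as CPM, counts scaled to the library total with edgeR's TMM factors, and 3 counts, taken as the floor, stood at 0.121 to 0.393 CPM. Grk5, the gene carried by the transgene, rose from a mean of 60.4 ± 9.50 to one of 1222 ± 472 CPM (SD, n = 5 each, edgeR adjusted p = 0.000245), with no overlap between genotypes. All 10 cardiomyocyte markers examined were present, with a summed level of 50646 to 132008 CPM in NLC-MI and 53705 to 104779 CPM in TgGRK5-MI. RNA of other cells was present too. The summed level of 10 fibroblast markers spanned 4566 to 27867 CPM in NLC-MI and 4801 to 28372 CPM in TgGRK5-MI, that of 11 macrophage and monocyte markers 763 to 2220 and 1220 to 2490 CPM, and that of 10 endothelial markers 1100 to 1760 and 995 to 1907 CPM. No marker of these 3 lists had a count of 0 in any library, and in each of them 0 genes had an unadjusted p under 0.05 in edgeR's test. The smallest p in each was that of Tcf21 (0.287), Cd68 (0.144) and Kdr (0.168). The macrophage and monocyte markers leaned higher in TgGRK5-MI, with 10 of 11 fitted above 0 and a median log2 fold change of 0.20. Of the cardiomyocyte markers, the calcium release channel Ryr2 was lower at an unadjusted p of 0.00902 (edgeR adjusted p = 0.968), and of 8 smooth muscle and pericyte markers, which summed to 1023 to 1912 and 1281 to 2097 CPM, Abcc9 was lower at 0.0314 (edgeR adjusted p = 1.00). Neutrophil markers (7 genes) summed to 12.1 to 34.9 and 16.4 to 39.1 CPM, with S100a9 at the smallest p (0.456), and the defining marker Ly6g had 0 counts in 7 libraries. Lymphocyte markers (8 genes) summed to at most 4.49 CPM, and Cd3d had 0 counts in 4 libraries. Cd79a was the 1 gene of that list with enough counts to be tested (log2 fold change 0.65, edgeR adjusted p = 1.00). In such bulk RNA, fewer cells of a type and less RNA per cell cannot be told apart.

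Dusp1 was the most abundant member and Dusp9 the least. Levels of different genes were compared per length, as FPKM (CPM divided by the annotated exon length in kilobases), over all 10 libraries. Dusp1 was at 45.6 ± 25.4 FPKM (SD, n = 10) and made up 49.0% of the sum of the family's means. It was the highest member in 10 of 10 libraries, above Dusp7 by 1.53 ± 0.53 on the log2 FPKM scale (exact two-sided sign-flip permutation test, adjusted p = 0.00586 over 9 neighbouring pairs). Dusp7 was at 14.4 ± 3.75 FPKM and was above Dusp8, at 10.1 ± 2.08 FPKM, in 8 of 10 libraries (exact permutation test, adjusted p = 0.0146).

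Dusp8 and Dusp6, the latter at 9.27 ± 1.61 FPKM, did not differ beyond their spread (exact permutation test, adjusted p = 0.355). Dusp5 (5.53 ± 2.21 FPKM) lay below Dusp6 in 10 of 10 libraries. Dusp5, Dusp16 (3.70 ± 0.79 FPKM) and Dusp10 (2.74 ± 0.97 FPKM) followed each other without a difference beyond the spread at each step (exact permutation test, adjusted p = 0.0989 for both steps). The order then fell to Dusp4 at 0.941 ± 0.385 FPKM, Dusp2 at 0.594 ± 0.329 FPKM and Dusp9 at 0.136 ± 0.124 FPKM, and each of these steps passed the exact permutation test (the largest adjusted p was 0.00703). In all, 6 of 9 steps passed at an adjusted p under 0.05. With the longest transcript as length, Dusp4 was above Dusp2 in 6 of 10 libraries and that step did not pass (exact permutation test, adjusted p = 0.0527), and Dusp6 came before Dusp8 and Dusp16 before Dusp5.

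**Figure D1:**
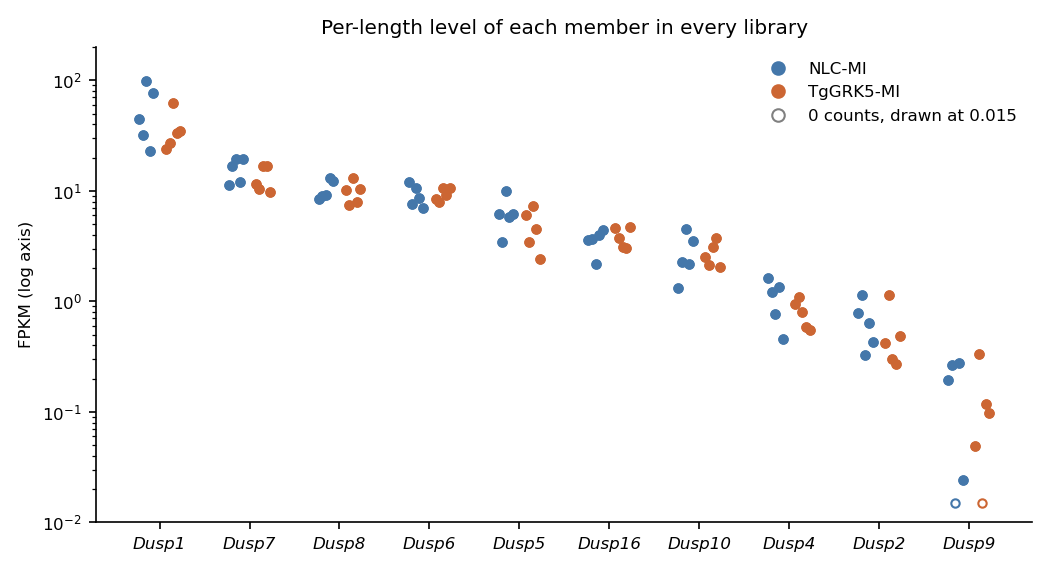
Per-length level (FPKM, log axis) of each member, ordered by mean, with 1 point per library for NLC-MI (blue) and TgGRK5-MI (orange); open points mark libraries with 0 counts. The Dusp1 points stood highest within each library, from 22.99 to 98.7 FPKM, and the points of both groups overlapped for every member.

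For the question of whether GRK5 overexpression changed MKP expression after MI, 0 of the 9 members tested passed, at an adjusted p under 0.10 or at an unadjusted p under 0.05, in edgeR's quasi-likelihood test. DESeq2 likewise gave 0 members at either threshold. Across all 15232 genes tested, 0.0788% passed the first threshold and 3.85% the second. Dusp9 had too few counts to be tested. The unadjusted p of the 9 members ran from 0.148 for Dusp1 to 0.971 for Dusp10, and the adjusted p was 1.00 for each. For 0 of the 10 members did the groups separate, where 1.00% of all genes tested had groups that did not overlap. Of the 9 fitted log2 fold changes, 7 were below 0 and 2 were above 0, with a median of -0.27, and 49.8% of all genes tested were below 0 with a median of 0.0013.

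**Figure D2:**
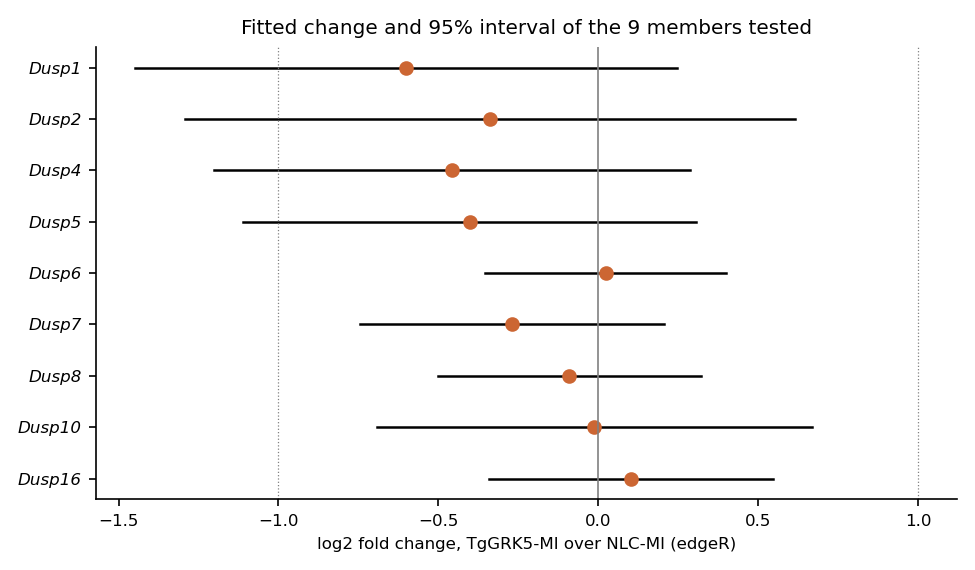
Log2 fold change (TgGRK5-MI over NLC-MI, edgeR) of the 9 members tested, as points with 95% intervals as lines; dotted lines mark a doubling and a halving. Every interval held 0, and those of Dusp6, Dusp7, Dusp8, Dusp10 and Dusp16 lay within the dotted lines.

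In the edgeR fit, the inducible nuclear members had the lowest values of the 9 members tested and the widest intervals. The order did not hold throughout. Dusp7, at -0.34 with limma-voom, lay below Dusp1 (-0.26) and Dusp5 (-0.14), at -0.35 with the sex covariate it lay below Dusp5 (-0.046), and at -0.49 without the 3 shallowest libraries it lay below Dusp2 (-0.16), Dusp4 (-0.45) and Dusp5 (-0.44). Dusp1 (ENSMUSG00000024190, chromosome 17 from 26505590 to 26562128, GRCm38) encodes a phosphatase for p38, JNK and ERK that is transcribed within minutes of stress or growth factor signals. In NLC-MI replicates 1 to 5 it was at 148, 106, 327, 76.1 and 252 CPM. In TgGRK5-MI replicates 1 to 5 it was at 79.3, 90.0, 206, 110 and 114 CPM. The means were 182 ± 105 and 120 ± 50.3 CPM (SD, n = 5 each), and 4 of 5 TgGRK5-MI values lay below the NLC-MI mean while the ranges overlapped. The log2 fold change was -0.60 (standard error 0.39, 95% interval -1.45 to 0.25), which spans a 0.367-fold to a 1.19-fold level. Here and below, a member's exact permutation test between genotypes compared the group means of log2 CPM, not the fitted value. For Dusp1 that difference was -0.48 (exact permutation test, p = 0.302, where 0.00794 is the smallest p 5 against 5 allow).

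NLC-MI replicates 3 and 5 and TgGRK5-MI replicate 3 were the 3 highest libraries for Dusp1. With each library left out in turn its log2 fold change lay between -0.89 and -0.28. Without TgGRK5-MI replicate 3 the unadjusted p was 0.0392 and without NLC-MI replicate 4 it was 0.0489, with an edgeR adjusted p of 1.00 in both. NLC-MI replicate 3, the shallowest library, gave the other end, -0.28, when left out.

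Dusp5 (ENSMUSG00000034765, chromosome 19 from 53529109 to 53542431) encodes a phosphatase that acts on ERK and holds it in the nucleus. It was at 15.1, 8.54, 24.9, 14.2 and 15.2 CPM in NLC-MI and at 14.98, 8.51, 18.1, 11.2 and 6.01 CPM in TgGRK5-MI. The means were 15.6 ± 5.87 and 11.8 ± 4.85 CPM (SD, n = 5 each), with a log2 fold change of -0.40 (standard error 0.32, 95% interval -1.11 to 0.31, exact permutation test, p = 0.254). As with Dusp1, replicate 3 was the highest library in each group, and the fitted value was -0.18 without NLC-MI replicate 3, -0.23 without TgGRK5-MI replicate 5 and -0.62 without TgGRK5-MI replicate 3.

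Dusp4 and Dusp2 were at the low end. Dusp4 (ENSMUSG00000031530, chromosome 8 from 34807297 to 34819894), whose product acts on ERK and JNK, was at 4.49, 3.36, 2.09, 3.71 and 1.24 CPM in NLC-MI and at 2.59, 3.01, 2.17, 1.62 and 1.503 CPM in TgGRK5-MI. This gave a log2 fold change of -0.46 (standard error 0.34, 95% interval -1.20 to 0.29, exact permutation test, p = 0.357). The groups overlapped, with NLC-MI replicate 5 the lowest of all 10 libraries. Without that library the log2 fold change was -0.66 and the unadjusted p 0.0435 (edgeR adjusted p = 0.957), while without NLC-MI replicate 1, the highest library, it was -0.27.

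Dusp2 (ENSMUSG00000027368, chromosome 2 from 127336159 to 127338376) is best known from activated leukocytes. It held 5 to 57 counts per library and was at 1.59, 2.31, 0.654, 1.27 and 0.851 CPM in NLC-MI and at 0.850, 2.27, 0.608, 0.539 and 0.966 CPM in TgGRK5-MI. Replicate 2 was the highest in both groups. The log2 fold change was -0.34 (standard error 0.44, 95% interval -1.29 to 0.61, exact permutation test, p = 0.397). It was -0.85 without TgGRK5-MI replicate 2 and -0.05 without NLC-MI replicate 2, so that 1 library moved it severalfold.

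**Figure D3:**
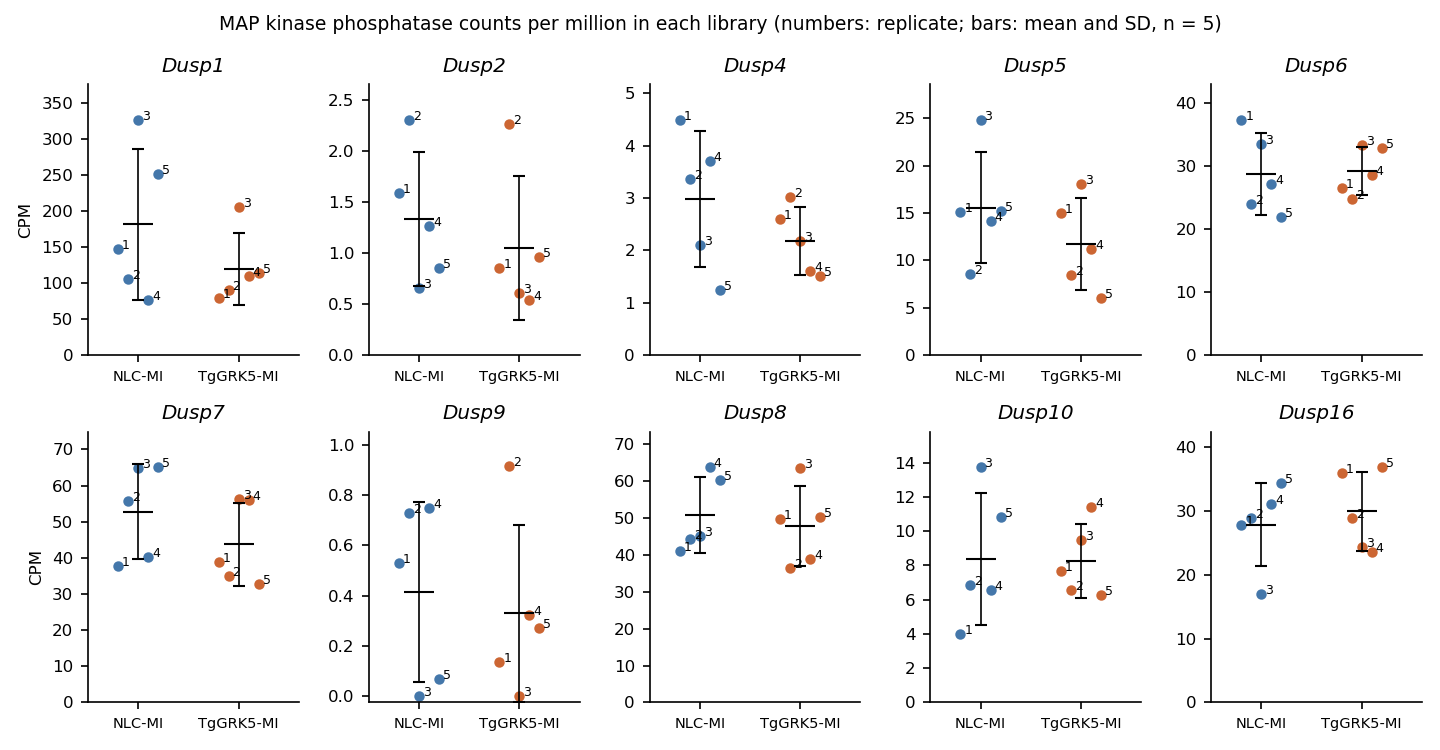
CPM of each member in every library, with replicate numbers beside the points and mean and SD (n = 5) as bars, each panel on its own linear axis. The groups overlapped for all 10 members, and TgGRK5-MI replicate 3 stood at 206 CPM for Dusp1 while its 4 group mates for that gene lay between 79.3 and 114.

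Among the cytoplasmic members, Dusp6 gave the narrowest interval of the family. Dusp6 (ENSMUSG00000019960, chromosome 10 from 99263231 to 99267489) encodes the ERK-specific MKP-3, whose RNA is widely used as a readout of ERK activity. It was at 37.4, 24.0, 33.5, 27.2 and 22.0 CPM in NLC-MI and at 26.5, 24.7, 33.5, 28.7 and 33.0 CPM in TgGRK5-MI. The means of 28.8 ± 6.48 and 29.3 ± 3.86 CPM (SD, n = 5 each) gave a log2 fold change of 0.02 (standard error 0.17, 95% interval -0.35 to 0.40, exact permutation test, p = 0.817). A change beyond 0.782-fold or 1.32-fold lay outside this interval.

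Dusp7 (ENSMUSG00000053716, chromosome 9 from 106368632 to 106375724), an ERK phosphatase like Dusp6, was at 37.8, 55.9, 64.9, 40.1 and 65.1 CPM in NLC-MI and at 38.9, 34.9, 56.3, 56.0 and 32.8 CPM in TgGRK5-MI. The log2 fold change was -0.27 (standard error 0.22, 95% interval -0.75 to 0.21, exact permutation test, p = 0.254). Both groups fell into a lower and a higher set of libraries, with 2 of 5 TgGRK5-MI and 3 of 5 NLC-MI libraries at 55.9 CPM or more. The higher TgGRK5-MI set was replicates 3 and 4, the shallowest of that group. The higher NLC-MI set was replicates 3 and 5, the shallowest of that group, and replicate 2, the deepest. The part of depth was not tested. Dusp9 (ENSMUSG00000031383, chromosome X from 73639419 to 73643514), the placental ERK phosphatase of the family, held 0 to 21 counts per library. It had 0 counts in NLC-MI replicate 3 and TgGRK5-MI replicate 3, and no fold change is given at this depth.

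The fitted differences of the members that prefer JNK and p38 lay near 0. Dusp8 (ENSMUSG00000037887, chromosome 7 from 142079490 to 142095843) was at 41.0, 44.2, 45.01, 63.8 and 60.1 CPM in NLC-MI and at 49.6, 36.5, 63.6, 38.8 and 50.3 CPM in TgGRK5-MI. The fitted log2 difference was -0.09 (standard error 0.19, 95% interval -0.50 to 0.32, exact permutation test, p = 0.627). Dusp16 (ENSMUSG00000030203, chromosome 6 from 134715468 to 134792625), whose product acts mainly on JNK, was at 27.8, 28.8, 17.0, 31.1 and 34.3 CPM in NLC-MI and at 35.8, 28.9, 24.2, 23.6 and 36.8 CPM in TgGRK5-MI. The log2 fold change was 0.10 (standard error 0.20, 95% interval -0.34 to 0.55, exact permutation test, p = 0.627). NLC-MI replicate 3, the highest library for Dusp1 and Dusp5, was the lowest for Dusp16.

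Dusp10 (ENSMUSG00000039384, chromosome 1 from 184013302 to 184075636), a p38 and JNK phosphatase, was at 4.01, 6.84, 13.7, 6.57 and 10.8 CPM in NLC-MI and at 7.65, 6.54, 9.47, 11.4 and 6.28 CPM in TgGRK5-MI. The log2 fold change was -0.01 (standard error 0.31, 95% interval -0.69 to 0.67). The difference of mean log2 CPM had the other sign, at 0.067 (exact permutation test, p = 0.865). The means were 8.39 and 8.27 CPM, with a coefficient of variation of 45.9% within NLC-MI. Over the family, this coefficient within NLC-MI ran from 20.4% for Dusp8 to 57.7% for Dusp1 among the 9 members tested.

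Summed per class, the nuclear members were at 30.7 to 110 FPKM in NLC-MI and 31.4 to 70.7 FPKM in TgGRK5-MI, and Dusp1 alone made up 32.4% to 63.3% of the family sum in NLC-MI and 34.8% to 53.0% in TgGRK5-MI. The cytoplasmic members were at 20.9 to 30.0 and 18.6 to 27.5 FPKM, and the members that prefer JNK and p38 at 13.3 to 20.3 and 13.4 to 19.3 FPKM. The range of the nuclear class was thus the widest, and the groups overlapped in all 3 classes.

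The genes on which MKPs act, and those that act beside them, were counted from hand-written lists. Of 9 MAP kinases tested, 1 had an unadjusted p under 0.05 and was higher in TgGRK5-MI. This was Mapk3 (ERK1), with NLC-MI at 71.0 ± 8.04 and TgGRK5-MI at 90.2 ± 11.5 CPM (SD, n = 5 each). Its fitted log2 difference was 0.35 ± 0.14 (standard error), with an adjusted p of 1.00 in edgeR. Of 14 MAP3 kinases, 1 was lower, Map3k4, an activator of the p38 and JNK cascades, at 51.0 ± 11.01 and 36.1 ± 5.89 CPM, with a log2 fold change of -0.50 ± 0.18 and an adjusted p of 1.00 in edgeR. None of 7 MAP kinase kinases and none of 10 MAPK-activated kinases passed that threshold in edgeR's test, and the smallest p was that of Map2k6 (0.0807) and of Rps6ka2 (0.240). Among 13 genes tested from a list of other phosphatases and related proteins linked to MAP kinases, 1 was lower at that threshold. This was the small atypical phosphatase Dusp18, at 37.6 ± 17.4 and 22.7 ± 5.24 CPM. Its log2 fold change was -0.73 ± 0.28, with an adjusted p of 1.00 in edgeR. Without NLC-MI replicate 5 it was -0.43, and with limma-voom -0.46. These shares stand beside 3.85% of all genes tested, 1.77% higher and 2.08% lower.

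Of the 17 ERK feedback and target genes tested (Spry, Spred and Etv genes among them), 0 had an unadjusted p under 0.05 in edgeR's test, with a median log2 fold change of -0.14. The smallest p, 0.0864, was that of Spry2, an inhibitor of receptor tyrosine kinase signaling to ERK. Of the 23 immediate early genes tested, which hold no member, 5 were lower at an unadjusted p under 0.05 and 0 were higher. Over all genes tested, 2.08% were lower and 1.77% higher at that threshold. Of the 23, 0 had an edgeR adjusted p under 0.10, and the median log2 fold change was -0.57 against 0.0013 over all genes tested. For 1 of the 23, Fos, the groups did not overlap, beside 1.00% of all genes tested. The 5 lower genes were Fos, Jun, Junb, Ier2 and Socs3. Fos, a subunit of the AP-1 factor, was at 86.0 to 322 CPM in NLC-MI and at 60.3 to 84.8 CPM in TgGRK5-MI, with no overlap, a log2 fold change of -1.34 ± 0.33 (standard error) and an adjusted p of 0.501 in edgeR and 0.0349 in DESeq2. Fos passed in no other setting, with an adjusted p of 0.287 in limma-voom and 0.904 in edgeR with a sex covariate. Jun, its partner, was at 127 to 497 and 110 to 239 CPM, with a log2 fold change of -0.96 ± 0.38, which was -0.61 without NLC-MI replicate 3 and -0.57 with limma-voom. Junb (-0.75 ± 0.21), Ier2 (-0.50 ± 0.22) and Socs3 (-0.59 ± 0.24) overlapped between groups, and the adjusted p of these 4 genes in edgeR was at least 0.770.

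Dusp1 varied between mice with the immediate early genes. Each of the 9 members tested was set against the mean log2 CPM of 5 lists (immediate early genes, ERK feedback and target genes, and endothelial, fibroblast, and macrophage and monocyte markers), which gave 45 relations over 10 libraries. Of these 1 passed, that of Dusp1 with the 23 immediate early genes (Pearson r = 0.910, permutation p = 0.00061, adjusted p = 0.0274, Spearman rho = 0.782, permutation p = 0.0106, adjusted p = 0.134). The relation had r = 0.885 within NLC-MI and 0.972 within TgGRK5-MI. Without the 2 libraries farthest from the median of the list, NLC-MI and TgGRK5-MI replicate 3, r was 0.796 (exact permutation test over 8 libraries, p = 0.0206). With 1 library left out at a time r lay between 0.847 and 0.939. In 7 of these 10 repeats 0 of the 45 relations passed the adjusted threshold, and these were the repeats without NLC-MI replicate 1, 2 or 3 or TgGRK5-MI replicate 1, 3, 4 or 5. By a ranking of all genes tested on their correlation with Dusp1 after the group means were subtracted, the 3 most alike over 10 libraries were Jun (r = 0.971), Creg1 (r = 0.958) and 2310009A05Rik (r = 0.958). Such a ranking picks the highest r among all genes tested over few libraries. No chance level is given for it, here or for other members below.

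For Dusp5, r with the immediate early genes was 0.736 (permutation p = 0.0149, adjusted p = 0.134, Spearman rho = 0.721, permutation p = 0.0229, adjusted p = 0.134). It was 0.443 without both libraries numbered 3, and this lower value was not tested. For Dusp16, r with the immediate early genes was -0.672 (permutation p = 0.0307, adjusted p = 0.157, Spearman rho = -0.552, permutation p = 0.104, adjusted p = 0.265). Without the same libraries it was -0.053. For Dusp8, no relation passed the adjusted threshold, and that with the smallest p was with fibroblast markers (r = -0.769, permutation p = 0.013, adjusted p = 0.134, Spearman rho = -0.770, permutation p = 0.0127, adjusted p = 0.134, r = -0.645 without TgGRK5-MI replicate 2 and NLC-MI replicate 5).

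With the macrophage and monocyte markers, r was above 0 for Dusp2, Dusp4, Dusp6 and Dusp16 and below 0 for Dusp1, Dusp5, Dusp7, Dusp8 and Dusp10, and no relation passed the adjusted threshold. It was 0.686 for Dusp2 (permutation p = 0.0314, adjusted p = 0.157, Spearman rho = 0.636, permutation p = 0.0548, adjusted p = 0.224), and it was 0.878 within NLC-MI and 0.899 within TgGRK5-MI. For Dusp10 it was -0.761 (permutation p = 0.0108, adjusted p = 0.134, Spearman rho = -0.733, permutation p = 0.0208, adjusted p = 0.134), and -0.798 without NLC-MI replicate 5 and TgGRK5-MI replicate 2. For Dusp2, r was 0.637 without the same libraries. Dusp7 had the smallest Spearman p of all 45 relations (r = -0.699, permutation p = 0.0286, adjusted p = 0.157, Spearman rho = -0.806, permutation p = 0.00756, adjusted p = 0.134), with r = -0.518 without these libraries. Dusp5 (r = -0.656, permutation p = 0.0398, adjusted p = 0.163, Spearman rho = -0.721, permutation p = 0.0238, adjusted p = 0.134) and Dusp8 (r = -0.653, permutation p = 0.0436, adjusted p = 0.163, Spearman rho = -0.697, permutation p = 0.0306, adjusted p = 0.153) gave r = -0.656 and -0.426 without them. The fibroblast markers gave r above 0 for Dusp2, Dusp4 and Dusp16 and below 0 for the other members tested. For Dusp2 this r was 0.728 (permutation p = 0.0218, adjusted p = 0.157, Spearman rho = 0.600, permutation p = 0.0736, adjusted p = 0.237). It was 0.868 within NLC-MI and 0.745 within TgGRK5-MI. For Dusp4, r was 0.624 with the fibroblast and 0.557 with the macrophage and monocyte markers. The part of either cell type in the members' values was not tested. Dusp6 and the ERK feedback genes gave r = 0.597 (permutation p = 0.0677, adjusted p = 0.190, Spearman rho = 0.648, permutation p = 0.0482, adjusted p = 0.217), which was 0.271 without NLC-MI replicates 5 and 3. Dusp16 and the same genes gave r = -0.802 (permutation p = 0.00539, adjusted p = 0.121, Spearman rho = -0.745, permutation p = 0.0173, adjusted p = 0.134), with -0.708 without NLC-MI replicates 5 and 3.

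**Figure D4:**
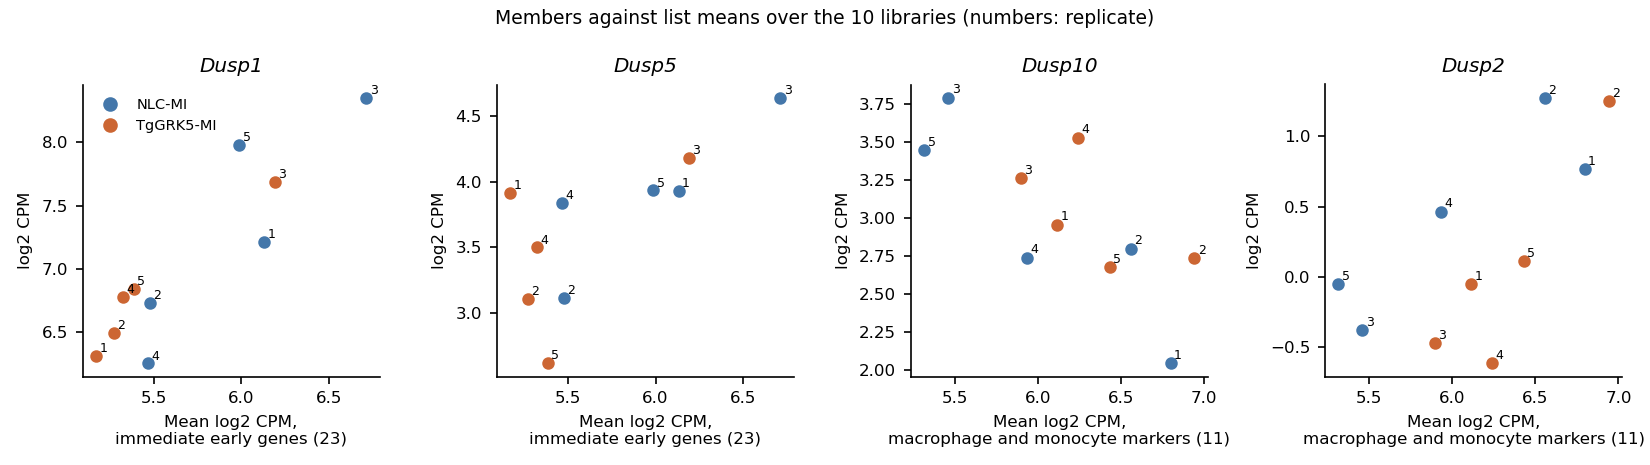
Log2 CPM of Dusp1, Dusp5, Dusp10 and Dusp2 against the mean log2 CPM of a gene list in the 10 libraries, with replicate numbers beside the points. Dusp1 rose with the immediate early genes in both groups (r = 0.910), and Dusp10 and Dusp2 ran in opposite directions with the macrophage and monocyte markers (r = -0.761 and 0.686). They did so too with the fibroblast markers, which are not drawn (r = -0.654 and 0.728).

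Among themselves, the members varied between libraries in both directions. Of the 36 pairs of members, 0 passed a Pearson or Spearman adjusted p under 0.05 by permutation, and the 5 with the smallest Pearson p are given. Dusp7 and Dusp10 were the closest pair (r = 0.785, permutation p = 0.00788, adjusted p = 0.263, Spearman rho = 0.867, permutation p = 0.00223, adjusted p = 0.0803), with r = 0.891 within NLC-MI, 0.960 within TgGRK5-MI and 0.793 without the 2 libraries farthest from the median of Dusp10. Dusp10 and Dusp2 ran against each other (r = -0.708, permutation p = 0.0222, adjusted p = 0.263, Spearman rho = -0.733, permutation p = 0.0204, adjusted p = 0.245, r = -0.726 without these libraries). The other 3 were Dusp10 and Dusp4 (r = -0.688, permutation p = 0.0279, adjusted p = 0.263, Spearman rho = -0.552, permutation p = 0.106, adjusted p = 0.400), Dusp7 and Dusp1 (r = 0.703, permutation p = 0.0292, adjusted p = 0.263, Spearman rho = 0.564, permutation p = 0.097, adjusted p = 0.400) and Dusp4 and Dusp2 (r = 0.669, permutation p = 0.0377, adjusted p = 0.271, Spearman rho = 0.600, permutation p = 0.0725, adjusted p = 0.400), with r = -0.631, 0.682 and 0.705 without the libraries farthest from the median of the first gene. These pairs also followed library depth. NLC-MI replicates 3 and 5 and TgGRK5-MI replicates 3 and 4 held the fewest counts and the highest Dusp7 and Dusp10 values. NLC-MI replicate 3 and TgGRK5-MI replicates 3 and 4, the shallowest, were the lowest for Dusp2. The part of depth in these pairs was not tested. By the same ranking as for Dusp1, the genes most like Dusp7 were C130023A14Rik (r = 0.976), Gm38312 (r = 0.955) and Ttc17 (r = 0.949), and those most like Dusp8 were Mrps27 (r = 0.972), Mrps18a (r = 0.970) and Hspb8 (r = 0.962).

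**Figure D5:**
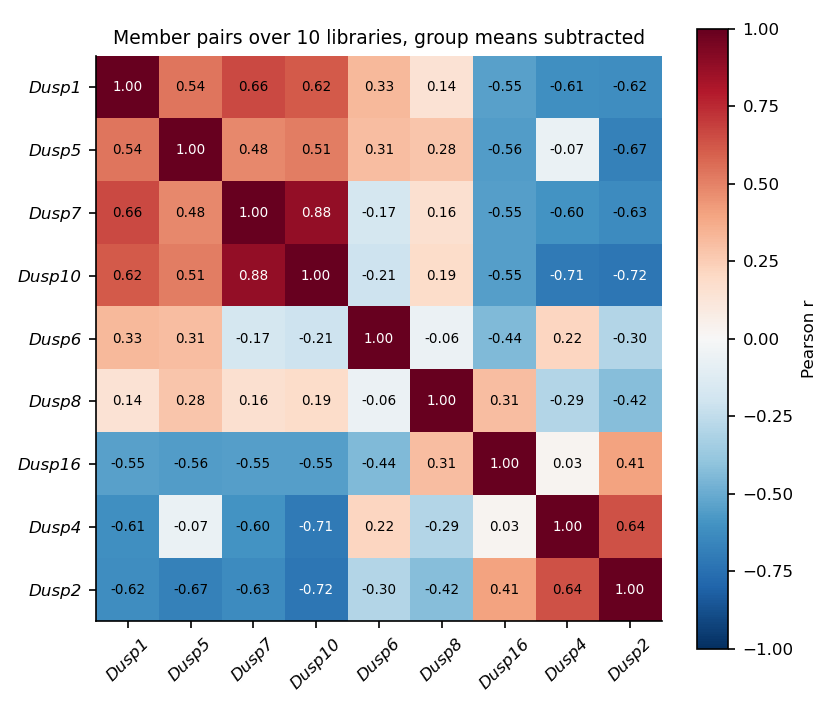
Pearson r of log2 CPM between members over the 10 libraries after the group means were subtracted (red above 0, blue below 0). Dusp1, Dusp5, Dusp7 and Dusp10 were positive with each other, from 0.479 to 0.875, and negative with Dusp2, from -0.719 to -0.622.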

How the data were processed

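RNA of cardiomyocytes was sequenced in 10 libraries, 5 per group. The authors deposited whole-number counts per Ensembl gene without normalization. The submitters' processing notes name Bowtie2, RSEM 1.2.31, DESeq2 and the mm10 build, with no role given, so the deposited counts may be rounded RSEM estimates. The labels name the TruSeq RNA kit v2, which does not mark strand, so reads of overlapping genes on opposite strands cannot be told apart. Symbols, positions and exon lengths came from GENCODE M21 (GRCm38), which held 51596 of 51789 identifiers. Of the members, Dusp1 shares 11 exon bases with Ergic1, Dusp8 66 with Gm32786 and Dusp5 547 with a gene that has no entry in the table.

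Counts were filtered with filterByExpr (15232 of 28506 genes with a total above 0), TMM-normalized and compared with edgeR 4.0.16's quasi-likelihood F test in R 4.3.3, with Benjamini-Hochberg adjustment over all genes tested. The standard error is the log2 fold change divided by the square root of F. Log2 CPM used a prior count of 2. For single members, the difference of the group means of log2 CPM was also tested by permuting genotype over the mice exactly (two-sided, 252 placements). Log2 FPKM was taken after adding 0.01. Permutation p-values of correlations used 100000 resamples. Only edgeR's test was tried on simulated counts, drawn independently for each gene and library. That trial does not cover the permutation tests or variation shared between genes. Precision is limited by 5 mice per group and, for Dusp2, Dusp4 and Dusp9, by depth.

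Alternatives were DESeq2 1.42.0, scaling by RLE or by library size only, limma 3.58.1 (voom with sample quality weights), no filter, at least 10 counts in every library, the replicate number as a block, a sex covariate from Xist and Y-linked genes, each library left out, a prior count of 0.5 and the longest transcript as length. The fit without the 3 shallowest libraries and the member pairs were chosen after seeing the data. The members and lists were chosen with earlier results of these data known. Named were all members, Grk5, list genes with an unadjusted p under 0.05 (otherwise the smallest p) and the 3 genes most like the most abundant member of each class.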

Additional observations from a re-analysis of the deposited data

Results flagged for a closer look

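Values were set against the other libraries of their group with Dixon's test in 58 groups of 5 values, where chance sets about 1 in 20 apart, and 6 values stood apart. Dusp1 in TgGRK5-MI replicate 3 reached 206 CPM while its group mates lay between 79.3 and 114, and Jun in the same library was at 239 CPM against 110 to 113 CPM. Dusp2 in TgGRK5-MI replicate 2 was at 2.27 CPM against 0.539 to 0.966 CPM. Mapk3 in TgGRK5-MI replicate 1 was low, at 70.2 CPM against 92.8 to 99.7 CPM. Kdr, the VEGF receptor of endothelial cells, was at 252 CPM in NLC-MI replicate 3 against 176 to 198 CPM, and the neutrophil gene S100a9 was at 4.97 CPM in NLC-MI replicate 4 against 1.31 to 2.11 CPM.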

How the results depend on the processing

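No member passed an adjusted p under 0.10 under any alternative (the smallest was 0.379, for Dusp4 with limma-voom). At an unadjusted p under 0.05 the count of members was 0, and it was 1 with limma-voom (Dusp4), 1 without the 3 shallowest libraries (Dusp7) and 0 to 1 with each library left out. Of 178 member values under alternatives, 161 kept their direction and 17 reversed, all of the latter for Dusp6, Dusp8, Dusp10 and Dusp16, whose fitted values lay near 0. The 161 include values of Dusp9, which had no main fit and was set against the fit without the filter. Reversed values were 0.011 for Dusp8 and 0.22 for Dusp10 with limma-voom, 0.018 for Dusp10 with library size alone, 0.047 for Dusp10 and -0.0035 for Dusp16 with the sex covariate. With each library left out they spanned -0.068 to 0.12 for Dusp6, -0.22 to 0.0052 for Dusp8, -0.21 to 0.23 for Dusp10 and -0.027 to 0.18 for Dusp16. Over all genes, 12 were called, against 69 with DESeq2, 50 with limma-voom, 4 with the sex covariate, 6 without the 3 shallowest libraries and 3 to 10 with each library left out. At an unadjusted p under 0.05 there were 586 genes, against 1810 with limma-voom, 1163 without the filter and 457 to 1069 with each library left out. Values that moved by over 1.5 times included those of Dusp1 (-0.26 with limma-voom) and Dusp5 (-0.14 with limma-voom, -0.046 with the sex covariate). Further such values were those of Dusp2 (-0.77 with limma-voom, -0.71 with the sex covariate), Fos (-0.87 with limma-voom) and Mapk3 (0.23 with limma-voom). The causes were not tested. The steps in the order of levels that passed were 6 to 7 with each library left out and 6 with the longest transcript as length, where the order changed, and the relations that passed 0 to 1.

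The labels do not say whether the replicate numbers pair the mice, and the values could not settle it. Deviations from the group means correlated at 0.0717, 0.662, 0.381, -0.341 and 0.0848 for numbers 1 to 5, a mean of 0.172. Between different numbers the mean was -0.0274, with a range from -0.606 to 0.731, and no test was run. With the number as a block 8 genes were called, 0 of them members, and Dusp10 reversed to 0.067.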
